A study of Mus musculus with 5 samples.

Results

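Chemokines are small secreted proteins that guide migrating cells, and chemokine receptors are the G protein-coupled receptors that read them. The deposited table of 24768 loci was searched for gene symbols of the CC, CXC, XC and CX3C ligand and receptor families and of the atypical receptors, which gave 63 loci, 41 of ligands and 22 of receptors, under 59 distinct symbols. Their summed RNA was higher in every tumor library than in either wild-type library. The symbols Darc, Ccbp2 and Cxcr7 stand in the files for the atypical receptors now called Ackr1, Ackr2 and Ackr3.

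The tumor group had 3 libraries from Lats1/2 mutant eye tumors of adult mice, genotype AAV5-Cre;Lats1/2 fl/fl. An adeno-associated virus of serotype 5 brought Cre recombinase into mice whose Lats1 and Lats2 alleles were both floxed. The wild-type group had 2 libraries from uveal tissue of adult mice with no targeted allele and no virus named in the labels. The uvea is the pigmented middle coat of the eye (choroid, ciliary body and iris), and Lats1 and Lats2 encode kinases of the Hippo pathway that hold back the coactivators YAP and TAZ. The labels name neither the promoter that drives Cre nor the cells it reached, and they do not say whether each library came from an animal of its own. The p-values therefore measure only the spread between these samples, which may be technical.

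Total RNA was sequenced to 12687703 to 14368272 estimated fragments per tumor library and to 13911934 and 12799991 per wild-type library. Levels are given as FPKM, the authors' fragment counts scaled for transcript length and library depth. Lats1 fell to 3.43, 3.90 and 2.94 FPKM in tumors, against 7.55 and 8.86 FPKM in wild type (log2 fold change −1.21, SE 0.18, edgeR adjusted p = 0.012). Lats2 was at 12.6, 17.0 and 14.3 FPKM in tumors, against 20.1 FPKM on average in the 2 wild-type libraries, and did not pass (edgeR adjusted p = 0.058). Reads from exons that Cre does not remove count here too, so these values do not measure how complete the deletion was. The 5 markers of melanocytes, the pigment cells of the uvea, all fell and summed to 11.6, 26.7 and 4.36 FPKM in tumors, against 6594 and 6369 FPKM in wild type. Retinal pigment epithelium markers summed to 3.75, 40.3 and 6.17 FPKM in tumors, against 2869 and 3029 FPKM in wild type, and 3 of 4 fell. How much of the pigment gene RNA came from either cell type was not tested. Photoreceptor markers summed to 1.48, 3.10 and 4.72 FPKM in tumors, against 1020 and 1100 FPKM in wild type, so the wild-type tissue also held retinal RNA.

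Each chemokine is a ligand for 1 or more receptors, and many receptors take several ligands. In general, CC ligands such as the monocyte chemoattractants act on monocytes and macrophages through receptors such as Ccr2 and Ccr1. The interferon-induced CXC ligands act on T cells and natural killer (NK) cells through Cxcr3, and the CXC ligands that bind Cxcr2 act on neutrophils. Homeostatic ligands such as Cxcl12, Cxcl13 and Ccl19 position cells in resting tissue and lymphoid organs. Atypical receptors bind chemokines without G protein signalling and mostly clear them from tissue.

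Of the 63 loci, 7 were at 0 in all libraries and 45 passed the filter on low counts and were tested in the fit over 15241 named loci, 27 of ligands and 18 of receptors. A locus is said to have risen or fallen only where its adjusted p in edgeR was under 0.05. In tumors 14 ligand loci and 11 receptor loci rose, 25 in all, beside 18.7% of all tested loci that rose. No chemokine or receptor locus fell, beside 15.4% of all tested loci. At an unadjusted p under 0.05 edgeR had 0 of them lower and 33 higher, beside 22.0% of all tested loci lower and 25.9% higher. DESeq2 also called 0 as lower, beside 21.5% of all tested loci, and called 19 ligand and 14 receptor rises beside 24.2% of all tested loci. The other 20 tested loci did not pass, 16 with a positive and 4 with a negative log2 fold change of tumor over wild type. Every tumor library lay above both wild-type libraries at 35 of the 45 loci (33.7% of all tested loci) and below both at 2, Ccl25 and Ccl27a (35.9% of all tested loci). The median log2 fold change was 3.71 over the tested ligands and 2.53 over the tested receptors, or 2.2 with Ccr8, which had no fragment in wild type, placed at its lower bound. The median over all tested loci was 0.05.

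These counts depend on which loci could be tested, since 16 of the 45 had fewer than 10 fragments in at least 1 wild-type library and passed the filter through their tumor levels. Of the 29 loci with at least 10 fragments in both wild-type libraries, 12 rose, beside 17.0% of all loci so restricted. Without either wild-type library in turn, edgeR called 0 of all loci and so 0 of these. Without wild-type library 1 or 2, the median fitted log2 fold change in edgeR was 3.62 and 3.77 over 30 ligands. It was 2.23 and 2.58 over 21 receptors, beside 0.024 and 0.030 over all loci then tested. The same medians in DESeq2 were 3.66 and 3.77 over 27 ligands and 2.51 and 2.74 over 18 receptors, beside 0.011 and 0.014 over all loci.

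**Figure D1:**
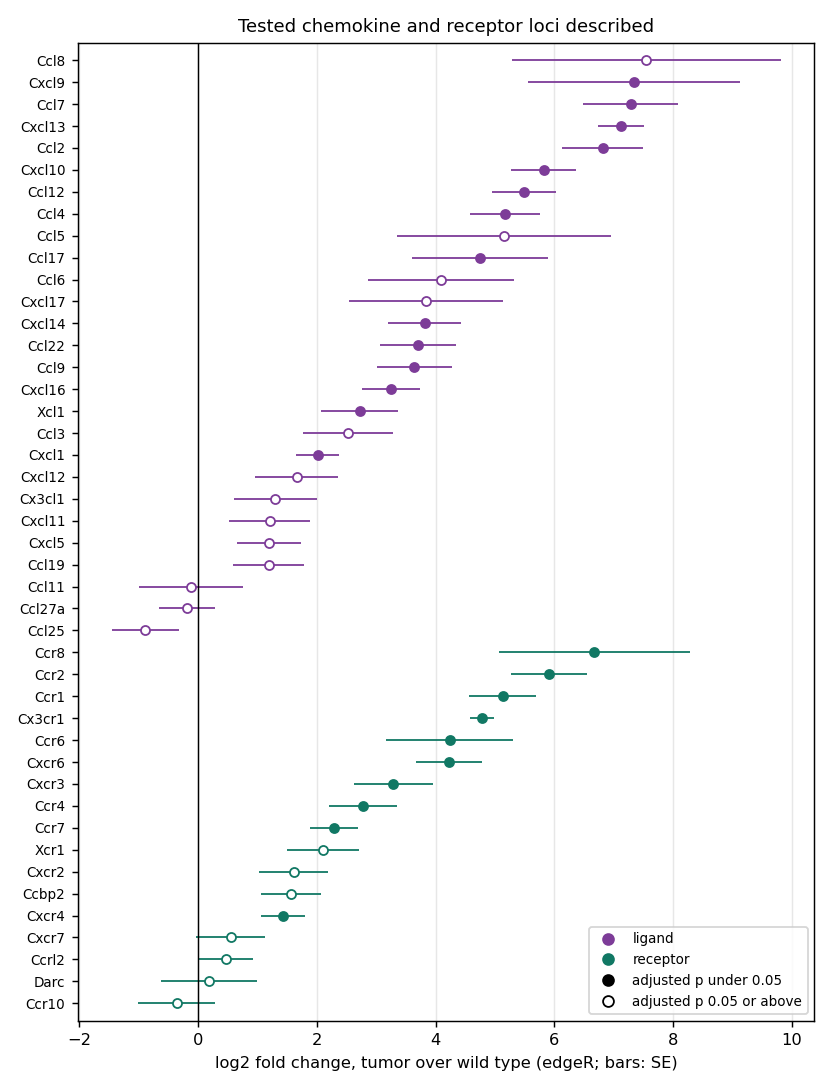
Log2 fold change of tumor over wild type (edgeR, bars are the standard error) for the tested ligand loci and the tested receptor loci described here, each group ordered by size. Filled points have an adjusted p under 0.05; all filled points lie to the right of 0, and the widest bars belong to Ccl8, Ccl5 and Cxcl9. The Ccr8 point is a fit against 0 wild-type fragments and is no bound.

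The bulk tissue cannot tell fewer cells of a type from less RNA per cell. Summed markers of each immune list, except eosinophils and mast cells, were higher in every tumor library than in both wild-type libraries. The counts of markers below stand beside 18.7% of all tested loci that rose and 15.4% that fell (edgeR). Macrophage and monocyte markers summed to 480, 371 and 879 FPKM in tumors, against 143 and 154 FPKM in wild type, and 4 of 6 rose. T cell markers summed to 28.5, 28.1 and 66.8 FPKM in tumors, against 3.74 and 3.10 FPKM in wild type, and 5 of 6 rose. Microglia markers summed to 91.4, 111 and 88.6 FPKM in tumors, against 23.7 and 24.7 FPKM in wild type, and all 3 that could be tested rose. Most of this sum was Tmem119, at 77.7, 100 and 74.0 FPKM in tumors, against 22.3 and 23.0 FPKM in wild type. B cell markers rose at 3 of 4 loci and summed to 11.5 to 22.8 FPKM in tumors, against 3.44 and 3.70 FPKM in wild type. Dendritic cell markers rose at 1 of 4 and summed to 13.8 to 52.4 FPKM in tumors, against 5.42 and 5.64 FPKM in wild type. Neutrophil markers (2 of the 3 tested rose) summed to 41.9 to 62.1 FPKM in tumors, against 10.2 and 11.6 FPKM in wild type. NK cell markers (1 of the 3 tested rose) summed to 6.48 to 19.1 FPKM in tumors, against 2.04 and 2.36 FPKM in wild type. The neutrophil granule gene Mpo had 1, 0 and 0 fragments in tumors and 0 in both wild-type libraries, and no locus was named Ly6g. Of the eosinophil and mast cell markers 1 rose (Prg2), 1 fell (Siglec5), 3 did not pass and Epx was listed at 0 in all 5 libraries. Their sum was 14.0 to 19.4 FPKM in tumors, against 20.27 and 15.96 FPKM in wild type. The part of these cells in the chemokine levels was not tested.

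Summed over the ligand loci counted here, chemokine RNA came to 1541, 865 and 4192 FPKM in tumor libraries 1, 2 and 3, against 177 and 175 FPKM in wild-type libraries 1 and 2. The leading ligand differed between tumors. Cxcl12 held 31.1% of the sum in tumor library 1, Cxcl10 held 15.5% in tumor library 2 and Ccl8 held 48.2% in tumor library 3, whereas Cxcl12 held 41.7% and 45.5% in the wild-type libraries. At least 10 FPKM was reached by 17, 16 and 17 ligand loci in tumors, against 3 in each wild-type library.

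**Figure D2:**
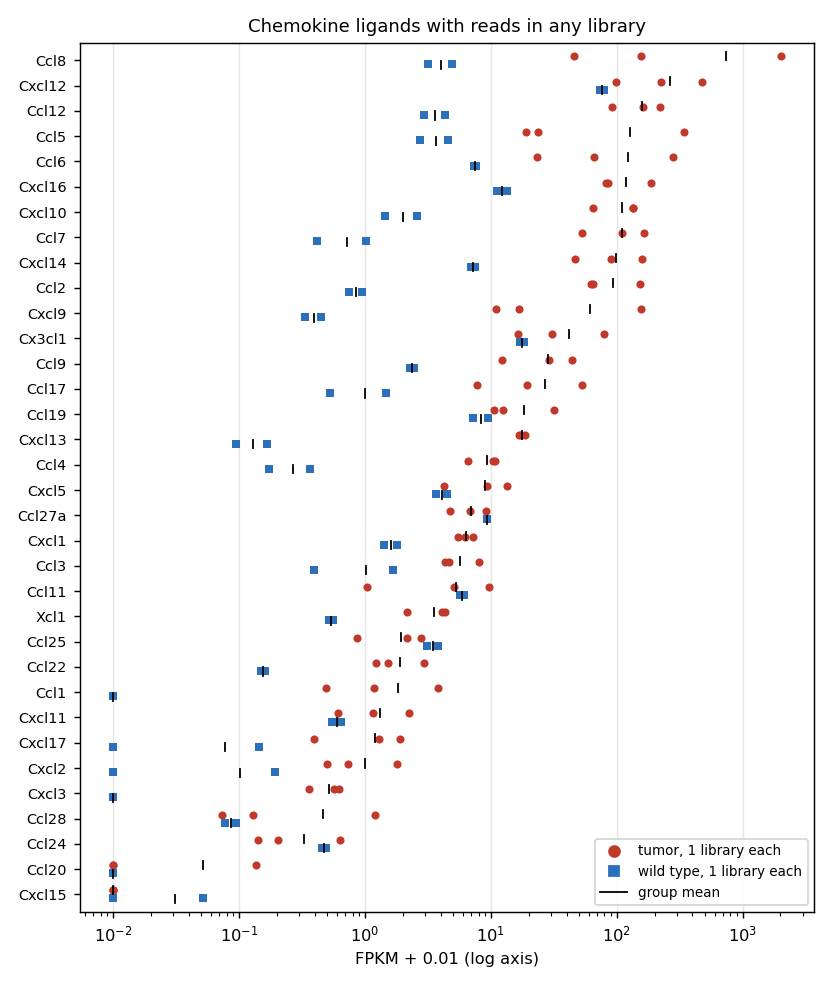
FPKM plus 0.01 on a log axis for each ligand locus with reads in any library; circles are the 3 tumor libraries, squares the 2 wild-type libraries and short lines the group means, with loci ordered by tumor mean. Ccl8 spans 45.8 to 2021 FPKM in tumors and Cxcl13 only 16.8 to 18.7 FPKM.

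The monocyte chemoattractants Ccl2, Ccl7 and Ccl12, all ligands of Ccr2, were among the largest rises. Ccl2 was at 64.5, 62.1 and 153 FPKM in tumors, against 0.745 and 0.938 FPKM in wild type (log2 fold change 6.82, SE 0.68, edgeR adjusted p = 0.0062). Ccl7 was at 110, 53.4 and 166 FPKM in tumors, against 1.01 and 0.407 FPKM in wild type (log2 fold change 7.28, SE 0.80, edgeR adjusted p = 0.0072). Both were near 1 FPKM or below in wild type and above 50 FPKM in every tumor. Ccl12, the second mouse counterpart of human CCL2, was at 162, 92.4 and 221 FPKM in tumors, against 4.30 and 2.93 FPKM in wild type (log2 fold change 5.49, SE 0.54, edgeR adjusted p = 0.0061). Tumor library 3 was the highest for all 3 ligands, and the groups did not overlap.

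The macrophage inflammatory protein genes Ccl4 and Ccl9 also rose. Ccl4 was at 10.4, 6.64 and 10.9 FPKM in tumors, against 0.164 and 0.354 FPKM in wild type. With only 3 wild-type fragments in all, the ratio of its scaled totals was 38.9, with an exact 95% binomial interval of 13.1 to 190 for counting error only (edgeR adjusted p = 0.0076). Ccl9, a Ccr1 ligand of the mouse, was at 29.3, 12.3 and 44.5 FPKM in tumors, against 2.47 and 2.29 FPKM in wild type (log2 fold change 3.64, SE 0.63, edgeR adjusted p = 0.017). Its tumor libraries all lay above 10 FPKM and its wild-type libraries below 3 FPKM. Ccl3, a ligand of Ccr1, was at 4.34, 4.64 and 8.10 FPKM in tumors, against 0.383 and 1.65 FPKM in wild type. It did not pass in edgeR (adjusted p = 0.057) and passed in DESeq2 (adjusted p = 0.011).

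Ccl8, Ccl5 and Ccl6 reached their highest levels in a single tumor. Ccl8, which in the mouse acts on Ccr8, was at 155, 45.8 and 2021 FPKM in tumors, against 4.91 and 3.17 FPKM in wild type. Every tumor lay above both wild-type libraries, yet its log2 fold change of 7.55 had an SE of 2.27 and it did not pass (edgeR adjusted p = 0.057). Ccl5, a ligand of Ccr1 and Ccr3 made by T and NK cells among others, was at 19.1, 23.8 and 341 FPKM in tumors, against 4.60 and 2.73 FPKM in wild type. Its log2 fold change of 5.15 had an SE of 1.80 (edgeR adjusted p = 0.082). Ccl6, a myeloid Ccr1 ligand of the mouse, was at 66.4, 23.4 and 280 FPKM in tumors, against 7.56 and 7.31 FPKM in wild type (log2 fold change 4.10, SE 1.23, edgeR adjusted p = 0.058). Tumor library 3 held the top value of each, and tumor library 1 or 2 the lowest. Without tumor library 3, the log2 fold changes were 4.66, 2.58 and 2.63 and all passed in edgeR (adjusted p = 0.021, 0.017 and 0.035 for Ccl8, Ccl5 and Ccl6). DESeq2 over all 5 libraries called each as higher in tumors (adjusted p = 5.1e-07, 0.00038 and 0.00018). The Ccl6 span overlaps that of E230016K23Rik.

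Ccl17 and Ccl22, ligands of Ccr4 that dendritic cells and macrophages make, rose from low wild-type levels. Ccl17 was at 7.80, 19.5 and 52.8 FPKM in tumors, against 1.46 and 0.524 FPKM in wild type (log2 fold change 4.74, SE 1.14, edgeR adjusted p = 0.035), and at 3.77 without tumor library 3 (edgeR adjusted p = 0.032). Ccl22 was at 1.23, 1.51 and 2.94 FPKM in tumors, against 0.139 and 0.150 FPKM in wild type (log2 fold change 3.71, SE 0.64, edgeR adjusted p = 0.017). For both, tumor library 3 was highest, tumor library 1 lowest, and no tumor reached down to wild type.

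The remaining CC ligands gave no call. Ccl19, a lymphoid ligand of Ccr7, was at 31.8, 12.5 and 10.7 FPKM in tumors, against 9.43 and 7.20 FPKM in wild type (log2 fold change 1.19, SE 0.60, edgeR adjusted p = 0.18). All tumors lay above both wild-type libraries, tumor library 3 by little. Ccl11, the eosinophil attractant eotaxin, was at 9.65, 5.10 and 1.04 FPKM in tumors, against 6.10 and 5.74 FPKM in wild type, so the groups overlapped. Ccl25 and Ccl27a, known for recruitment to gut and skin, had log2 fold changes of −0.89 and −0.18, and neither passed (edgeR adjusted p = 0.27 and 0.78). Ccl27a shares its span with Il11ra1. Ccl1, a Ccr8 ligand, had 5, 2 and 15 fragments in tumors and 0 in both wild-type libraries, too few for the filter, and was at least 2.40-fold higher in tumors against a floor of 3 fragments per wild-type library. Ccl20, Ccl24 and Ccl28 had reads but were not tested. Copies of Ccl27b and Ccl21c, Ccl26 and the copy of Ccl19 on an unplaced scaffold were listed at 0. These near-identical copies can share reads with each other and with Ccl27a and Ccl19, so their levels are uncertain.

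Many CC ligand genes lie side by side on chromosome 11. In a run from chr11:82035577 to 82179812 (mm10), Ccl2, Ccl7 and Ccl12 rose, Ccl11 and Ccl8 did not pass, and Ccl1 was not tested. A further run, chr11:83525779 to 83664683, held Ccl4 and Ccl9, which rose, and Ccl5, Ccl6 and Ccl3, which did not pass. The plot of loci in chromosomal order shows Ccl11 with overlapping groups between neighbours whose groups stand well apart.

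**Figure D3:**
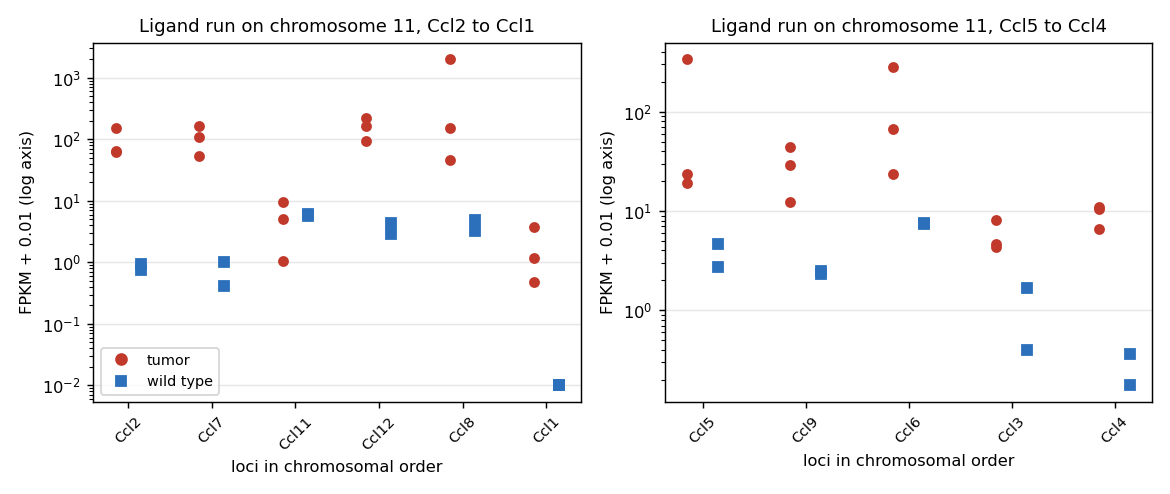
FPKM plus 0.01 on a log axis for the loci of a ligand run on chromosome 11 from Ccl2 to Ccl1 (left) and a further one from Ccl5 to Ccl4 (right), in chromosomal order; circles are tumor libraries and squares wild-type libraries. Ccl11 lies at 1.04 to 9.65 FPKM in tumors and around 6 FPKM in wild type, while its neighbours Ccl7 and Ccl12 lie above 50 FPKM in every tumor.

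Among the CXC ligands, the interferon-induced Cxcr3 ligands Cxcl9 and Cxcl10 rose. Cxcl9 was at 16.7, 10.9 and 156 FPKM in tumors, against 0.441 and 0.327 FPKM in wild type (log2 fold change 7.34, SE 1.79, edgeR adjusted p = 0.035), and at 5.19 without tumor library 3 (edgeR adjusted p = 0.0053). Cxcl10 was at 65.2, 134 and 134 FPKM in tumors, against 2.58 and 1.44 FPKM in wild type (log2 fold change 5.82, SE 0.55, edgeR adjusted p = 0.0056). Cxcl9 stood out in tumor library 3, while Cxcl10 was equally high in tumor libraries 2 and 3. The third member, Cxcl11, which the GENCODE annotation lists as a polymorphic pseudogene, was at 0.603, 2.22 and 1.14 FPKM in tumors, against 0.539 and 0.640 FPKM in wild type. The groups overlapped and it did not pass (edgeR adjusted p = 0.22). The 3 genes are neighbours between chr5:92321331 and 92414716, and Cxcl10 and Cxcl11 share their span with each other and with Art3. The strand setting of the authors' counting is not given in the sources used here, so reads of overlapping genes cannot be told apart.

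Cxcl1, Cxcl2, Cxcl3 and Cxcl5, neutrophil attractants that act on Cxcr2, were far lower. Cxcl1 rose to 5.49, 6.24 and 7.27 FPKM in tumors, against 1.80 and 1.41 FPKM in wild type (log2 fold change 2.02, SE 0.36, edgeR adjusted p = 0.018). Its tumor values lay close together and above wild type. Cxcl2 had 9, 6 and 21 fragments in tumors, against 0 and 2 in wild type, a ratio of scaled totals of 11.6 (exact 95% binomial interval 2.99 to 99.4). Cxcl3 had 7, 4 and 6 fragments in tumors, against none in wild type, at least 1.83-fold higher at the floor. Neither passed the filter on low counts; without it Cxcl3 passed (edgeR adjusted p = 0.040) and Cxcl2 did not (adjusted p = 0.11). Cxcl5 was at 13.5, 4.23 and 9.36 FPKM in tumors, against 3.70 and 4.48 FPKM in wild type, with overlapping groups, and did not pass (edgeR adjusted p = 0.15). It passed in edgeR without tumor library 2 (adjusted p = 0.029).

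Promoters were read from RefSeq windows on GRCm38.p6, available for 43 of the members. Those available for both gene groups are shown because these ligands are textbook targets of interferon and NF-kB. Cxcl11 and Cxcl5 of these groups had no window here and were not searched. The same holds for further members, among them Ccl2, Ccl7, Ccl4, Ccl5 and Cxcl16. Each line gives the 250 bases before the annotated start, 5′ to 3′ on the gene's strand. Capitals mark matches to an interferon-stimulated response element (ISRE), spelled GAAA, any 2 bases and GAAA, or to a kB site, spelled GGGA, any 2 bases and TTCC, each searched on both strands. The windows are Cxcl10 at chr5:92348890-92349139 and Cxcl9 at chr5:92328080-92328329, both on the minus strand, and Cxcl1 at chr5:90890995-90891244, Cxcl2 at chr5:90903649-90903898 and Cxcl3 at chr5:90785851-90786100 on the plus strand.
Cxcl10: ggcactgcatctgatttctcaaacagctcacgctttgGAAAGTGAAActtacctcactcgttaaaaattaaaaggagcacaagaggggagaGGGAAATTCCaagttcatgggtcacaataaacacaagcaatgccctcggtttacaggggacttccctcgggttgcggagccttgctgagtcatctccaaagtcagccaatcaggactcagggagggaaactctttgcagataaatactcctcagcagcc
Cxcl9: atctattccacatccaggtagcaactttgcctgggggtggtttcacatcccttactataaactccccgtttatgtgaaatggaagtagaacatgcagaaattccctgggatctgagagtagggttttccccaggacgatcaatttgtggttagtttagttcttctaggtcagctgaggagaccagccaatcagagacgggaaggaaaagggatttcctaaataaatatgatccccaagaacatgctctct
Cxcl1: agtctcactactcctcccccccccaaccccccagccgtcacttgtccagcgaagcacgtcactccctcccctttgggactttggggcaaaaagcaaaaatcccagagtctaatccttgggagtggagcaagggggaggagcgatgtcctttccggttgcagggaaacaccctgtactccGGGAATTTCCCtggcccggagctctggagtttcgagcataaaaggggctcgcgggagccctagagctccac
Cxcl2: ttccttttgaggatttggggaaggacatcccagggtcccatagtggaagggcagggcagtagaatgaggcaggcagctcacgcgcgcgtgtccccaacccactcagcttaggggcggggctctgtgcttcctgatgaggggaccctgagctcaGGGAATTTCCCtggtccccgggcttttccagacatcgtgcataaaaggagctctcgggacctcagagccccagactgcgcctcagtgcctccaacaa
Cxcl3: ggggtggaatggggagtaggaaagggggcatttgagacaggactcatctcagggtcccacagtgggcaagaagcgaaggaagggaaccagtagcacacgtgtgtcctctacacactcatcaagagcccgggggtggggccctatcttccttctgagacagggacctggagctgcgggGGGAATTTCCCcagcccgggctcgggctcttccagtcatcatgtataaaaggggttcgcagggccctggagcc

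The ISRE letters were found in 3 of the 43 windows (6.98%), those of Cxcl10, Cxcl14 and Ccl19, beside 2.97% of all 32817 windows. The kB letters were in 6 of 43 (14.0%), beside 1.21% of all windows. Besides Cxcl10 these were Cxcl1, Cxcl2 and Cxcl3, and Ccl1 and Ccr3. In Cxcl10 the ISRE match starts 213 bases and the kB match 159 bases before the gene's start. Cxcl1, Cxcl2 and Cxcl3 carry the same GGGAATTTCC, starting 71, 97 and 73 bases before the gene, and a reverse match that overlaps it from the next base on extends the capitals to 11 letters. These 3 genes lie in 1 run on chromosome 5, so the shared letters do not come from independent sequences. The Cxcl9 window shown holds neither motif. The letters of the interferon gamma-activated site, TTC, any 3 bases and GAA, were in 3 of 43 windows (6.98%), beside 7.01% of all, and the TEAD letters CATTCC, searched since YAP and TAZ bind DNA through TEAD factors, in 6 of 43 (14.0%), beside 12.6% of all. A match is a string of letters and shows no binding, and a window without one says nothing about the factor.

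Cxcl13, Cxcl16 and Cxcl14 rose in every tumor. Cxcl13, which draws B cells into follicles, was at 16.8, 18.7 and 17.3 FPKM in tumors, against 0.156 and 0.084 FPKM in wild type (edgeR adjusted p = 0.0029). The tumors differed by no more than 1.11-fold, the smallest spread among ligands that averaged at least 1 FPKM in tumors. With 2 and 1 fragments in the wild-type libraries, the ratio of scaled totals was 150 (exact 95% binomial interval 51.2 to 731). Cxcl16, a membrane-bound ligand and scavenger receptor, was at 81.9, 86.1 and 186 FPKM in tumors, against 13.4 and 11.2 FPKM in wild type (log2 fold change 3.25, SE 0.49, edgeR adjusted p = 0.012). Its span overlaps Zmynd15. Cxcl14 was at 159, 90.9 and 46.8 FPKM in tumors, against 7.02 and 7.52 FPKM in wild type (log2 fold change 3.82, SE 0.62, edgeR adjusted p = 0.015). Unlike most ligands it was lowest in tumor library 3, and all 3 tumors were still well above wild type.

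Cxcl12 and Cx3cl1, which stromal cells, endothelium and neurons make in resting tissue, were the most abundant of the ligand loci counted here in wild type. Cxcl12 was at 480, 98.6 and 223 FPKM in tumors, against 74.0 and 79.4 FPKM in wild type (log2 fold change 1.66, SE 0.69, edgeR adjusted p = 0.12). All tumors were above wild type, tumor library 2 by the least. Without tumor library 2 it passed in edgeR at 2.03 (adjusted p = 0.033), and with all libraries in DESeq2 (adjusted p = 0.036). Without tumor library 1 its log2 fold change was 0.94 (edgeR adjusted p = 0.17), and DESeq2 without wild-type library 1 or 2 did not call it (adjusted p = 0.24 and 0.22). Cx3cl1 was at 16.4, 30.4 and 79.2 FPKM in tumors, against 16.9 and 18.3 FPKM in wild type, and its groups overlapped (edgeR adjusted p = 0.20). Xcl1, a ligand made by T and NK cells, rose to 2.15, 4.11 and 4.33 FPKM in tumors, against 0.506 and 0.545 FPKM in wild type (log2 fold change 2.72, SE 0.65, edgeR adjusted p = 0.034). It rests on 9, 17 and 17 fragments in tumors and 2 in each wild-type library.

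Summed receptor RNA came to 300, 201 and 415 FPKM in tumors, against 66.4 and 70.1 FPKM in wild type. In wild type a single atypical receptor, Cxcr7, held 70.4% and 71.7% of the sum. In tumors the leading receptor was Ccr2 in library 1 (26.6%), Cx3cr1 in library 2 (30.4%) and Cxcr7 in library 3 (29.5%).

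**Figure D4:**
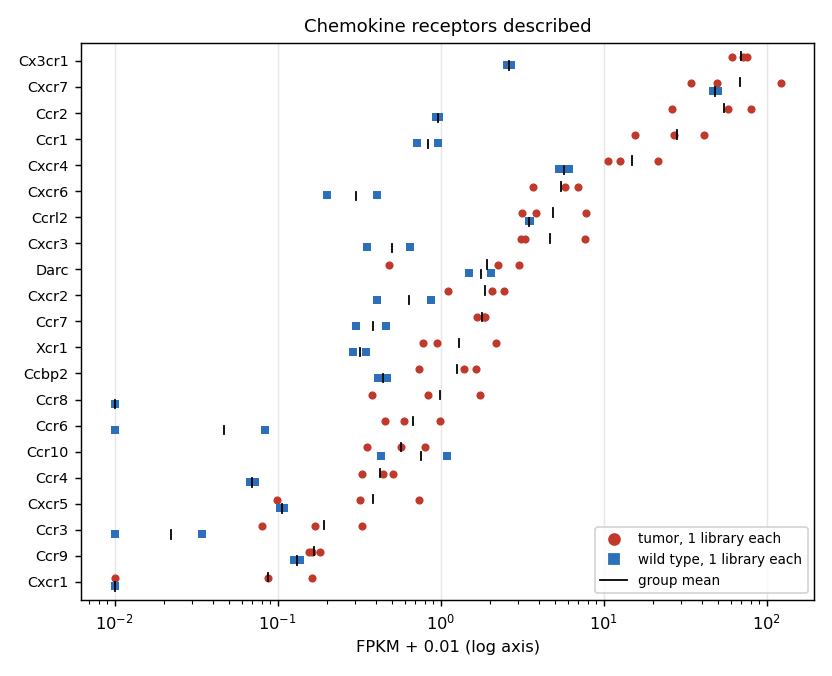
FPKM plus 0.01 on a log axis for the receptor loci described here; circles are the 3 tumor libraries, squares the 2 wild-type libraries and short lines the group means, with loci ordered by tumor mean. Cx3cr1 lies at 61.2 to 76.0 FPKM in tumors and below 3 FPKM in wild type, while the tumor values of Cxcr7 fall on both sides of wild type.

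The receptors of monocytes and macrophages were among the largest rises. Cx3cr1, the fractalkine receptor carried by microglia and monocytes, was at 71.9, 61.2 and 76.0 FPKM in tumors, against 2.55 and 2.68 FPKM in wild type (log2 fold change 4.78, SE 0.21, edgeR adjusted p = 0.0029). Its tumors differed by at most 1.24-fold. Ccr2, which releases monocytes from the bone marrow, was at 79.6, 26.2 and 58.1 FPKM in tumors, against 0.969 and 0.923 FPKM in wild type (log2 fold change 5.91, SE 0.64, edgeR adjusted p = 0.0071). Tumor library 2 was lowest for both receptors and still many times the wild-type level.

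Ccr1, a receptor of several macrophage inflammatory proteins, was at 27.1, 15.6 and 41.4 FPKM in tumors, against 0.708 and 0.947 FPKM in wild type (log2 fold change 5.13, SE 0.56, edgeR adjusted p = 0.0071). It was highest in tumor library 3 and lowest in tumor library 2, and the groups did not overlap. Ccr3, the eosinophil receptor, had 7, 3 and 13 fragments in tumors, against 1 and 0 in wild type, too few for the filter.

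Receptors of lymphocytes and dendritic cells rose at lower levels. Cxcr6, the Cxcl16 receptor of tissue-resident T cells, was at 3.66, 5.74 and 6.97 FPKM in tumors, against 0.397 and 0.190 FPKM in wild type (log2 fold change 4.23, SE 0.56, edgeR adjusted p = 0.0095). Its span overlaps Fyco1. Cxcr3, the receptor of Cxcl9 and Cxcl10 on T and NK cells, was at 3.11, 3.30 and 7.70 FPKM in tumors, against 0.637 and 0.343 FPKM in wild type (log2 fold change 3.29, SE 0.67, edgeR adjusted p = 0.023). Ccr7, which leads dendritic cells and naive T cells to lymph nodes, was at 1.83, 1.65 and 1.86 FPKM in tumors, against 0.294 and 0.453 FPKM in wild type (log2 fold change 2.29, SE 0.41, edgeR adjusted p = 0.018). For none of the 3 did the groups overlap, and only Cxcr3 had 1 tumor, library 3, well above the others. Ccr4, Ccr6 and Ccr8, receptors of T cell subsets, also passed (edgeR adjusted p = 0.024, 0.039 and 0.046) at no more than 1.74 FPKM in any tumor. Ccr8 had 5, 11 and 22 fragments in tumors and 0 in both wild-type libraries, at least 4.13-fold higher at the floor. It no longer passed without tumor library 1 (edgeR adjusted p = 0.0501). Ccr6 had 11, 18 and 7 fragments in tumors, against 1 and 0 in wild type, a ratio of scaled totals of 23.2 (exact 95% binomial interval 3.91 to 941).

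Cxcr4, the broadly expressed signalling receptor of Cxcl12, rose less. It was at 12.5, 10.7 and 21.5 FPKM in tumors, against 5.32 and 6.13 FPKM in wild type (log2 fold change 1.43, SE 0.37, edgeR adjusted p = 0.041). The groups did not overlap, but without tumor library 1 it no longer passed (edgeR adjusted p = 0.063). Cxcr2, the neutrophil receptor, was at 2.45, 1.10 and 2.06 FPKM in tumors, against 0.865 and 0.396 FPKM in wild type. It did not pass in edgeR (adjusted p = 0.086), but did without tumor library 2 (edgeR adjusted p = 0.048) and in DESeq2 (adjusted p = 0.041). Xcr1, which marks cross-presenting dendritic cells, was at 0.942, 0.771 and 2.17 FPKM in tumors, against 0.280 and 0.340 FPKM in wild type. It did not pass in edgeR (adjusted p = 0.052) and passed in DESeq2 (adjusted p = 0.010). With libraries scaled by size alone it passed in edgeR (adjusted p = 0.041). Leaving out either tumor library 2 or tumor library 3 gave an edgeR adjusted p of 0.034. Cxcr1, Cxcr5, Ccr3 and Ccr9 stayed at or below 0.728 FPKM in all libraries and did not pass the filter on low counts.

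None of the 4 atypical receptors counted here passed in edgeR over all 5 libraries, and 1, Ccbp2, passed in DESeq2. Cxcr7, a scavenger of Cxcl12, was at 49.6, 34.1 and 123 FPKM in tumors, against 46.8 and 50.2 FPKM in wild type (log2 fold change 0.55, SE 0.58, edgeR adjusted p = 0.49). Tumor library 2 lay below both wild-type libraries and tumor library 3 far above them, and the sign of the fold change turned without tumor library 3 (−0.17). Ccrl2, which binds chemerin, was at 3.82, 3.12 and 7.73 FPKM in tumors, against 3.47 and 3.50 FPKM in wild type, with overlapping groups. Darc, an endothelial and red cell receptor that takes up many chemokines, was at 3.03, 2.25 and 0.473 FPKM in tumors, against 1.49 and 2.02 FPKM in wild type, also overlapping. Ccbp2, a lymphatic scavenger of CC ligands, was at 1.63, 1.38 and 0.726 FPKM in tumors, against 0.461 and 0.404 FPKM in wild type. Its groups did not overlap (edgeR adjusted p = 0.068, DESeq2 adjusted p = 0.041), and without tumor library 3 it passed in edgeR at 1.83 (adjusted p = 0.022). Markers of blood and lymphatic endothelium, cells that carry such receptors, summed to 61.3 to 109 and 143 to 311 FPKM in tumors, against 91.7 to 97.4 and 247 to 254 FPKM in wild type. They did not pass at any of their 5 and 4 loci in edgeR. DESeq2, and edgeR at an unadjusted p under 0.05, each had 2 of the 5 lower and 1 of the 4 higher in tumors. The lymphatic sum was mostly Pdpn, at 152, 299 and 135 FPKM in tumors, against 240 and 247 FPKM in wild type. Lyve1 was at 13.1, 4.45 and 3.15 FPKM in tumors, against 0.929 and 1.34 FPKM in wild type. Prox1 and Flt4 had log2 fold changes of −0.14 and 0.15.

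The ligands and receptors were joined into 41 known pairs. Both partners rose in 11 pairs. In 2 the ligand rose and the tested receptor did not pass, and in 10 the receptor rose and the tested ligand did not pass. Of all tested ligands 51.9% rose and of all tested receptors 61.1%, and the pair counts were not tested against these shares. Among the partners that did not pass in edgeR, Xcr1, Cxcr2, Ccl3, Ccl5, Ccl6, Ccl8 and Cxcl12 passed in DESeq2. Ccl19, Cxcl11 and Cx3cl1 passed in neither. The pairs in which both rose included Ccl2, Ccl7 and Ccl12 with Ccr2, Ccl7 and Ccl9 with Ccr1, Ccl17 and Ccl22 with Ccr4, Cxcl9 and Cxcl10 with Cxcr3, and Cxcl16 with Cxcr6. Since several share a partner, the 11 pairs are not independent of each other.

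On the FPKM scale, which is per transcript length, pairs differed in which partner was plentiful. Cxcl10 averaged 111 ± 39.6 FPKM in tumors and 2.01 ± 0.810 FPKM in wild type, and its receptor Cxcr3 only 4.70 ± 2.60 FPKM in tumors and 0.490 ± 0.208 FPKM in wild type (SD, n = 3 and n = 2). Ccl2 averaged 93.2 ± 51.8 FPKM in tumors and 0.842 ± 0.136 FPKM in wild type, and Ccr2 54.7 ± 26.9 FPKM in tumors and 0.946 ± 0.0321 FPKM in wild type. In the pair of Cx3cl1 and Cx3cr1, the receptor rose and the ligand, with overlapping groups, did not pass. The difference between the partners' changes was not tested. Cxcl13 rose, while its receptor Cxcr5, carried by follicular B and T cells, was at 0.728, 0.0887 and 0.311 FPKM in tumors, against 0.0926 and 0.0998 FPKM in wild type, and did not pass the filter on low counts. Xcl1 rose while Xcr1 did not pass, and Cxcl1 rose while Cxcr2 did not pass. Ccl8 did not pass in edgeR, and its receptor Ccr8 passed at no more than 1.74 FPKM in any tumor. For Cxcl12, the signalling receptor Cxcr4 rose and the scavenger Cxcr7 did not pass.

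Ligand levels differed between the tumors. Among ligands that averaged at least 1 FPKM in tumors, the median ratio of the highest to the lowest tumor library was 3.26 (29 loci), and among such receptors 2.36 (14 loci), against 1.51 over 13156 tested loci at that level. The 29 ligands include Ccl1 and Cxcl2, which were not tested. Tumor library 3 was highest for 19 of the 29 ligands and 10 of the 14 receptors. The share of all tested loci highest in that library was not counted, so this may not be particular to chemokines. Tumor library 3 exceeded the mean of the other tumors 20.1-fold for Ccl8, 15.9-fold for Ccl5, 11.3-fold for Cxcl9 and 6.23-fold for Ccl6. Summed markers stood in it at 2.36 times that mean for T cells, 2.14 for NK cells, 2.07 for macrophages and monocytes and 3.03 for dendritic cells. The other immune lists were not higher in it, at 1.01 times for B cells, 0.877 for microglia, 0.785 for neutrophils and 0.790 for eosinophils and mast cells. Ifng, which encodes interferon gamma, was at 0.211, 0.0712 and 2.17 FPKM in tumors and listed at 0 in wild type, and did not pass the filter on low counts. The part of these cells or signals in the levels of tumor library 3 was not tested.

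Other ligands ran high in tumor library 1. It exceeded the mean of the other tumors 2.98-fold for Cxcl12, 2.74-fold for Ccl19, 3.15-fold for Ccl11 and 2.30-fold for Cxcl14. Skeletal muscle markers summed to 4520, 242 and 282 FPKM in tumors, against 328 and 307 FPKM in wild type, and so stood out in the same library. None of the 4 passed in edgeR (0 at an unadjusted p under 0.05), and 1 passed in DESeq2 as higher in tumors. Fibroblast markers, of cells that make Cxcl12, summed to 3051, 2174 and 4129 FPKM in tumors, against 1594 and 1773 FPKM in wild type. The 3 collagen genes of the list rose, while Dcn was at 809, 491 and 448 FPKM in tumors, against 1206 and 1373 FPKM in wild type, and did not pass (edgeR adjusted p = 0.060). DESeq2, and edgeR at an unadjusted p under 0.05, each had 1 of the 5 lower and 4 higher in tumors. Against the mean of the other tumors, fibroblast markers stood in tumor library 1 at 0.968 times. Those of blood endothelium, B cells and erythroid cells stood there at 1.63, 1.58 and 1.55 times. The part of any of these cells or of muscle in these ligand levels was not tested.

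**Figure D5:**
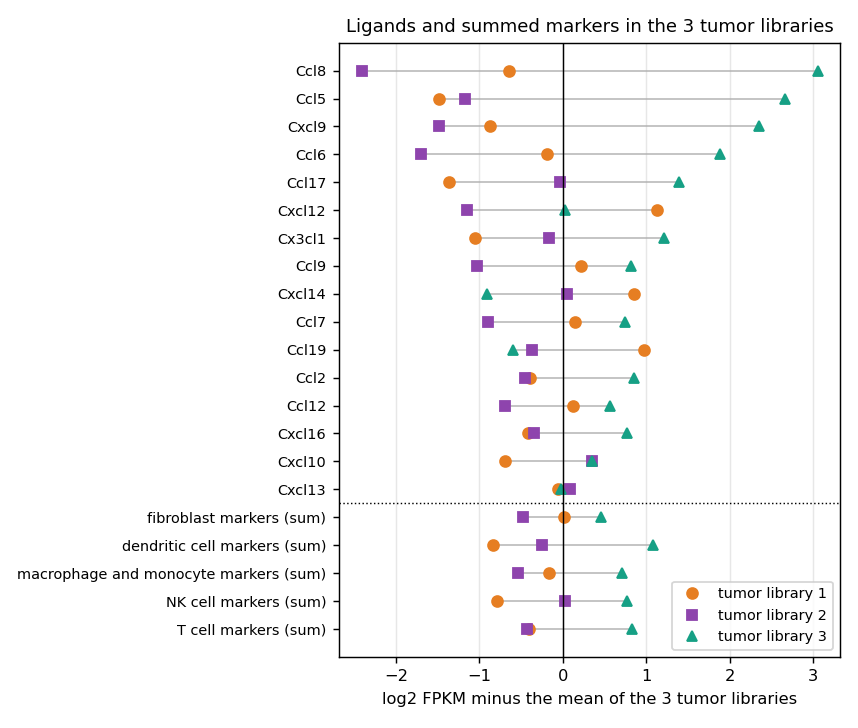
Log2 FPKM minus the mean of the 3 tumor libraries for the ligands with a tumor mean of at least 10 FPKM. Under the dotted line are summed markers of T cells, NK cells, macrophages and monocytes, dendritic cells and fibroblasts. The other lists are not drawn, among them B cells, microglia, neutrophils, and eosinophils and mast cells, which were not higher in tumor library 3. Each symbol is 1 tumor library. Ccl8, Ccl5, Cxcl9 and Ccl6 are far to the right in tumor library 3, while the 3 values of Cxcl13 nearly coincide.

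Genes that work around the chemokine receptors were followed in 3 lists that hold none of the loci counted above. Of 29 genes that carry the signal below the receptors, 18 rose, 0 fell and 11 did not pass (edgeR), beside 18.7% of all tested loci that rose and 15.4% that fell. Their median log2 fold change was 2.16. DESeq2, and edgeR at an unadjusted p under 0.05, each had 1 of them lower and 21 higher in tumors. Over all tested loci DESeq2 had 21.5% lower and 24.2% higher, and edgeR at the unadjusted p 22.0% lower and 25.9% higher. Coro1a, an actin regulator of leukocytes, was at 243, 191 and 278 FPKM in tumors, against 17.4 and 14.2 FPKM in wild type (log2 fold change 3.96, edgeR adjusted p = 0.0039). Pik3cg, the phosphoinositide kinase that G protein subunits switch on, was at 6.33, 5.48 and 8.08 FPKM in tumors, against 0.428 and 0.596 FPKM in wild type. Rgs2, which shortens G protein signals, rose by a log2 fold change of 2.30. The widely expressed Gnai2, Gnai3, Gnb1, Gnb2 and Rac1 did not pass. Many genes of the list are known from leukocytes, and their rise was not separated from that of the immune markers given above.

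Of 15 related chemoattractant genes, 8 rose, 1 fell and 6 did not pass (edgeR, beside 18.7% and 15.4% of all tested loci), with a median log2 fold change of 2.48. The list includes Pf4 and Ppbp, CXC chemokines whose symbols the search did not match, and the atypical receptor Ccrl1. They are not in the ligand and receptor counts and sums above. Pf4 rose to 98.4, 36.1 and 152 FPKM in tumors, against 20.7 and 14.5 FPKM in wild type (edgeR adjusted p = 0.046). Ppbp and Ccrl1 did not pass (edgeR adjusted p = 0.46 and 0.91). The complement receptors C3ar1 and C5ar1 rose by log2 fold changes of 3.42 and 3.02 (edgeR adjusted p = 0.0042 and 0.015). Gpr183, an oxysterol receptor that guides B and dendritic cells, rose by 2.75. Cd74, part of the receptor of the cytokine Mif, was at 4073, 5159 and 10553 FPKM in tumors, against 185 and 183 FPKM in wild type (log2 fold change 5.06, edgeR adjusted p = 0.0093). Mif itself fell to 636, 372 and 565 FPKM in tumors, against 1464 and 1107 FPKM in wild type (log2 fold change −1.24, edgeR adjusted p = 0.033). The part of immune cells in the levels of Cd74 and the other genes of this list was not tested.

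Of 21 genes that induce chemokines or regulate that induction, 19 passed the filter. Of these 13 rose, 0 fell and 6 did not pass (edgeR, beside 18.7% and 15.4% of all tested loci), with a median log2 fold change of 1.71. DESeq2, and edgeR at an unadjusted p under 0.05, each had 0 of them lower and 16 higher in tumors, beside 24.2% (DESeq2) and 25.9% (unadjusted p) of all tested loci higher. Il1b, an inflammatory cytokine that induces many of these ligands, was at 21.4, 18.9 and 17.8 FPKM in tumors, against 0.730 and 0.644 FPKM in wild type (log2 fold change 4.85, SE 0.27, edgeR adjusted p = 0.0029). Its tumor values lay close together. Irf7, Ifngr1 and Tlr2, of the interferon and Toll-like receptor pathways, rose by log2 fold changes of 3.70, 1.95 and 2.27. Tnf and Irf1 did not pass (edgeR adjusted p = 0.054 and 0.080).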

How the data were processed

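RNA was sequenced from 3 tumor and 2 wild-type samples. The submitters' processing notes name Cuffdiff, Cufflinks 2.2.1, TopHat2 2.0.9 and the mouse build mm10, with the tools' roles, the annotation and any use of strand not given in the sources used here. The deposited replicate table gives, per the file headers, an estimated count of fragments that was not scaled and an FPKM scaled by the authors. The estimated counts were rounded to whole numbers (96.8% to 97.1% already were). Loci without a name held 1.52% to 4.37% of fragments and stayed out of library sizes and tests.

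The members, pairs, lists and naming rule were chosen with earlier results of these data known. Values per library are given for members that passed and averaged at least 1 FPKM in a group, and for others that averaged at least 10 FPKM; lower members are given by range or as partners, and the few low ones singled out were chosen after their values were seen. The table numbers replicates from 0 and the labels from 1, so library numbers are names only. Libraries of a group differed by more than sampling noise (chi-square per degree of freedom 108 to 139 between tumors and 5.56 between wild-type libraries over loci with at least 20 fragments), so all 5 were kept.

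Under R 4.3.3, the 23141 named loci were filtered by filterByExpr (minimum count 10), scaled by TMM and compared by the quasi-likelihood F-test of edgeR 4.0.16 over 5 libraries, with no covariate. Its two-sided p-values were adjusted over 15241 loci (Benjamini-Hochberg). The SE of a log2 fold change is its size divided by the square root of F. Alternatives were DESeq2 1.42.0, other scalings, limma 3.58.1 on log2(FPKM + 1 or 0.1), no filter, loci with several or no names, a replicate block and each library left out; DESeq2 without a wild-type library was added after the data were seen. Floors and intervals cover counting error only. Spans are from the deposited loci, gene types from GENCODE on the same assembly. Some measured items are not reported here, though counts and sums include them.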

Additional observations from a re-analysis of the deposited data

How the results depend on the processing

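No chemokine or receptor locus fell under any setting run, and 21 of the 25 rises passed again in each fit without a tumor library. Leave-one-tumor-out fits called 14 to 17 ligands, 8 to 12 receptors, and 2398 to 3032 rises and 2067 to 3112 falls over all loci, against 2852 and 2349 with all 5 libraries. With either wild-type library left out, the lone one is assumed to vary like the tumors, and edgeR called 0 rises and 0 falls over all loci, hence 0 ligands and 0 receptors, although 4085 and 3996 loci had an unadjusted p under 0.05; the loss is not particular to chemokines. DESeq2 called 3682 rises and 3278 falls with all libraries, 1687 rises and 1191 falls without wild-type library 1, and 1656 rises and 1205 falls without wild-type library 2. It then called 16 and 16 ligands and 6 and 7 receptors. Limma on log2(FPKM + 1) without a filter called 1765 rises and 2492 falls, 11 ligands and 7 receptors, and so had a larger share of falls; the log2(FPKM + 1) scale understates changes of low genes.

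Whether the replicate numbers pair the samples is not settled. Deviations of same-numbered libraries from their group means correlated at 0.013 and 0.027. With 2 wild-type libraries their deviations mirror each other, so these values are not independent and cannot exclude a pairing. The replicate block left 1706 rises and 1361 falls, with 13 ligands and 6 receptors; 17 of the 25 rises held in it, and Ccl8 and Ccl5 passed.

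Signs turned only at loci that never passed. With the block, Cxcr7 was at −0.18, Ccl11 at 0.30, Ccl27a at 0.071 and Ccrl2 at −0.0037. Over fits with 1 library left out, Cxcr7 ran from −0.17 to 0.83, Ccl11 from −0.89 to 0.36, Ccl27a from −0.54 to 0.078, Ccrl2 from −0.011 to 0.65, Ccr10 from −0.91 to 0.42 and Darc from −0.31 to 0.63. Darc was at −0.033 in limma (pseudocount 1, with or without a filter) and −0.19 (pseudocount 0.1). In DESeq2 without wild-type library 1, Darc was at −0.0595 and Ccr10 at 0.44. The 4 loci that turned with the block also turned without tumor library 3, which adds nothing to the block's fold change. The cause of the other turns was not tested. Without the filter on low counts, 11 more members were tested and 1, Cxcl3, passed.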
